A study of Homo sapiens with 3 samples.

Results

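The 34 genes described here encode NRF2 (gene NFE2L2), its partner KEAP1, and enzymes and transporters of glutathione, thioredoxin, NADPH, carbonyl, haem, iron and peroxide metabolism. They were chosen by name as known genes of these pathways, with earlier results of these data known. They were matched by Ensembl identifier and are 34 of the 58037 genes in the count table. RWPE1 is an immortalized but non-tumorigenic line of human prostate epithelial cells. Bulk RNA of GFP-sorted RWPE1 cells was sequenced in 3 libraries, 1 per condition, labelled OLFM4-wild, OLFM4-knockout and OLFM4-active, to ask which genes differ with the state of OLFM4, which encodes the secreted glycoprotein olfactomedin 4. According to the study's methods, knockout cells were made with double nickase plasmids against OLFM4 and cells with an intact OLFM4 with CRISPR activation plasmids, a GFP reporter was used to sort them, and stable lines were kept under puromycin. The sources do not say how many clones each library holds, nor which plasmids the cells of the OLFM4-wild and OLFM4-active libraries had received.

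NRF2 is a transcription factor that is held in check by KEAP1, which presents it to the CUL3 ubiquitin ligase for degradation. Oxidants and electrophiles modify cysteines of KEAP1, and NRF2 then accumulates, pairs with a small MAF protein and binds antioxidant response elements, the short DNA sequences found near genes that make glutathione, regenerate thioredoxin, supply NADPH and reduce quinones. Because NRF2 is regulated mostly as a protein, the mRNA level of NFE2L2 and the protein level of NRF2 need not move together, and only mRNA was measured here. In prostate epithelium the glutathione transferase GSTP1 is known as a gene of basal cells that is commonly silenced in prostate cancer.

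The libraries, called wild, knockout and active-labelled below, held 16309906, 58837147 and 23224216 counts. Counts were scaled with TMM factors to a common library size (CPM), and the 3 values of a gene are given in the order wild, knockout, active-labelled. OLFM4 itself, the targeted gene, had 214, 131 and 16 counts, or 11.8, 2.55 and 0.670 CPM, so that its level was lowest in the library labelled OLFM4-active, against that label. Basal epithelial markers were all above a floor of 3 counts in each library, and their summed level was 18750, 41146 and 22727 CPM. The summed level of 5 markers of differentiated luminal cells was between 4.19 and 8.59 CPM, nearly all of it from ACP3. That sum leaves out KRT8, at 282, 231 and 146 CPM, and KRT18, at 177, 191 and 157 CPM, which the study counts as luminal markers. Markers of fibroblasts (22.9 to 34.1 CPM in sum), leukocytes (20.0 to 31.5 CPM), endothelium (0.460 to 1.76 CPM) and neuroendocrine cells (at most 0.921 CPM) were far below the basal sum in the 3 libraries. Of these, COL3A1, LUM, CD3E and CDH5 were at 0. Most of the fibroblast sum was COL1A1, at 30.2, 25.8 and 21.8 CPM, and most of the leukocyte sum was CD68, at 31.4, 24.4 and 19.8 CPM. The epithelial marker EPCAM was at 32.9, 51.2 and 57.1 CPM. Most of the basal sum was KRT5, at 12232, 27077 and 13685.5 CPM, and KRT14, at 4006, 9666 and 5542 CPM. With TMM all 6 basal markers were highest in the knockout library, but TP63 differed little, at 414, 472 and 450 CPM. With library totals in place of TMM, KRT5, KRT14, KRT15 and ITGA6 stayed highest there. TP63 was then lowest in the knockout library, with log2 fold changes of -0.16 against wild and -0.17 against active-labelled. For ITGB4 the knockout against the active-labelled library was -0.22 on that scale. KRT15, at 127, 359 and 97.2 CPM, was lower in the active-labelled than in the wild library. The higher basal sum in the knockout library, mostly of KRT5 and KRT14, moved with the changes described below. The part of this sum in them was not tested.

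All 34 genes reached an average of 1 CPM across libraries, as did 16600 genes of the table. Their levels spanned a wide range, as the plot of levels shows. Per kilobase of the canonical transcript, which allows genes to be compared, GSTP1 was the most abundant of the 34, at 1074, 2122 and 1297 CPM per kb, and FTH1, the heavy chain of the iron store ferritin, followed at 651, 656 and 929.8 CPM per kb. TXN (thioredoxin) and FTL (ferritin light chain) came next in the wild library, at 274 and 270.4 CPM per kb, and these neighbours did not differ beyond counting error. The lowest level in each library was that of the bile and drug conjugate pump ABCC2, at 0.427, 0.393 and 0.339 CPM per kb. The haem oxygenase HMOX1, often used as a marker of NRF2 activity, was also near the bottom, at 0.744, 0.790 and 0.889 CPM per kb. The summed level of the 34 genes was 4359, 6166 and 5451 CPM, and without GSTP1 and FTH1 it was 2781, 3805 and 3372 CPM, so the sum was lowest in the wild library either way. In bulk RNA, fewer cells of a type and less RNA per cell cannot be told apart.

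**Figure D1:**
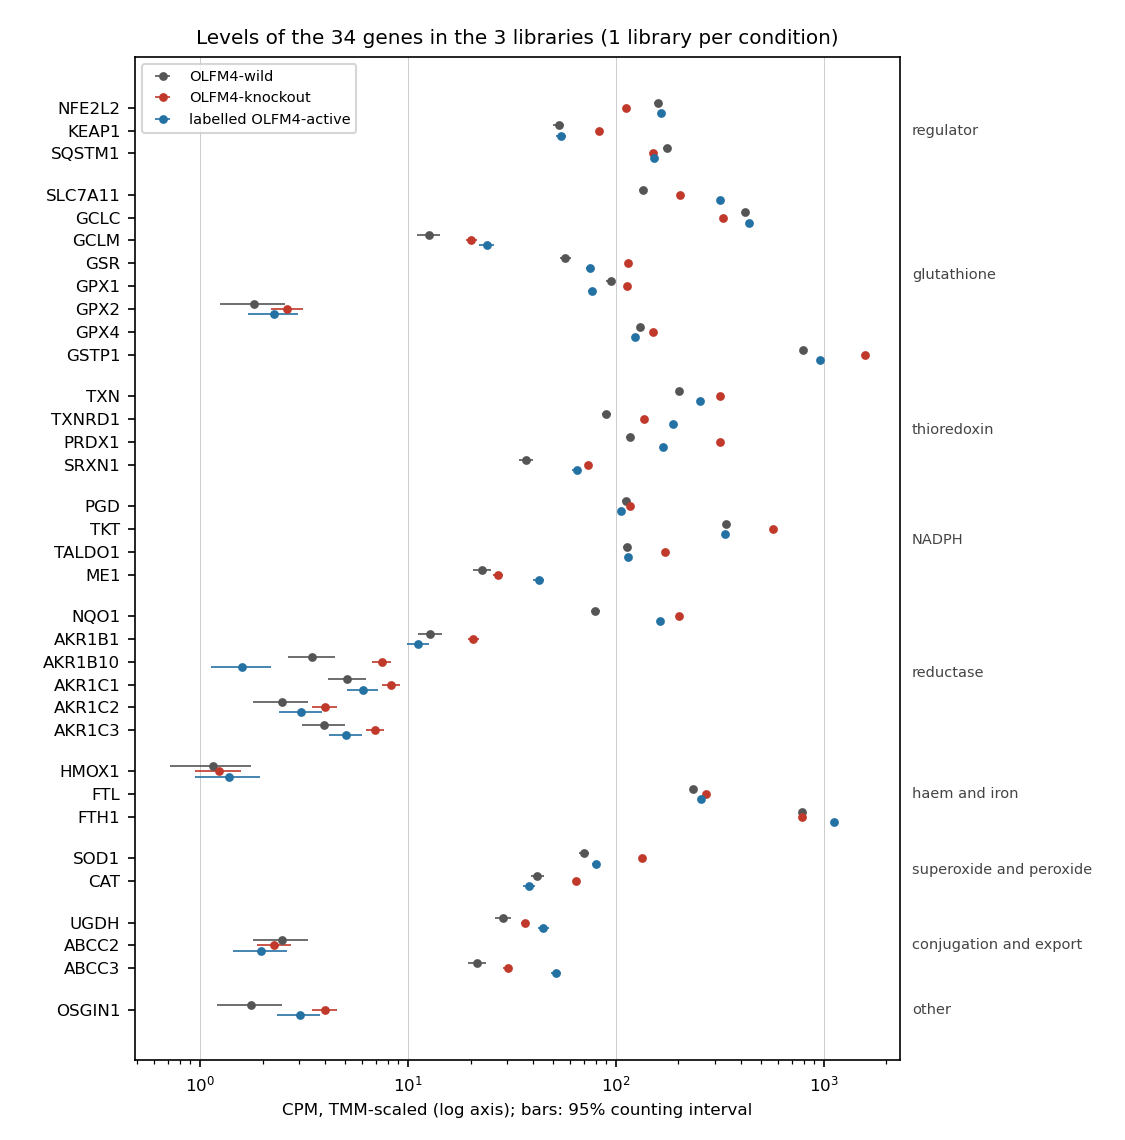
Level of each of the 34 genes in TMM-scaled CPM (log axis), grouped by role, with 1 point per library and bars for the 95% counting interval. GSTP1 and FTH1 lie at the top of the range and HMOX1 near 1 CPM in each library, and for NQO1, PRDX1 and GSTP1 the wild point lies below the other 2.

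With 1 library per condition no test between conditions was possible. Because the 34 genes were chosen with earlier results of these data known, their shares beside those of all genes are a description only. A log2 fold change above 1 is called a rise and one below -1 a fall, and the ranges in parentheses are 95% intervals that cover counting error only. In the knockout against the wild library, 4 of the 34 genes rose (11.8%), namely the peroxiredoxin PRDX1, the quinone reductase NQO1, the aldo-keto reductase AKR1B10 and OSGIN1, and none fell, while 5.77% of all 16600 genes rose and 7.56% fell. The log2 fold change was above 0 in 30 of the 34 genes, against 56.7% of all genes, and its median was 0.61 over the 34 genes and 0.10 over all genes. The whole counting interval lay above 0 for 26 of the 34 genes (42.4% of all genes) and below 0 for 3 (29.8% of all genes), which were NFE2L2, SQSTM1 and GCLC. The middle part of the 34 values ran from 0.22 at the lower quartile to 0.79 at the upper quartile. With library totals in place of TMM the median of all genes moved by -0.36 and the median of the 34 genes was 0.26. On that scale 22 of the 34 genes were above 0, against 5399 of all 16600 genes. PRDX1 alone was past 1, while 2.22% of all genes rose and 13.9% fell. In the active-labelled library against the same wild library, 4 of the 34 genes rose, namely the cystine transporter SLC7A11, the thioredoxin reductase TXNRD1, the conjugate pump ABCC3 and NQO1, and AKR1B10 fell, against 3.78% and 6.73% of all genes. With library totals SLC7A11 and ABCC3 rose and AKR1B10 fell, against 2.89% and 8.36% of all genes. With TMM the log2 fold change was above 0 in 25 of the 34 genes, against 53.9% of all genes, with a median of 0.26 over the 34 genes and 0.05 over all genes. Both comparisons share the wild library, so a low or high count in it moves a gene in both.

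**Figure D2:**
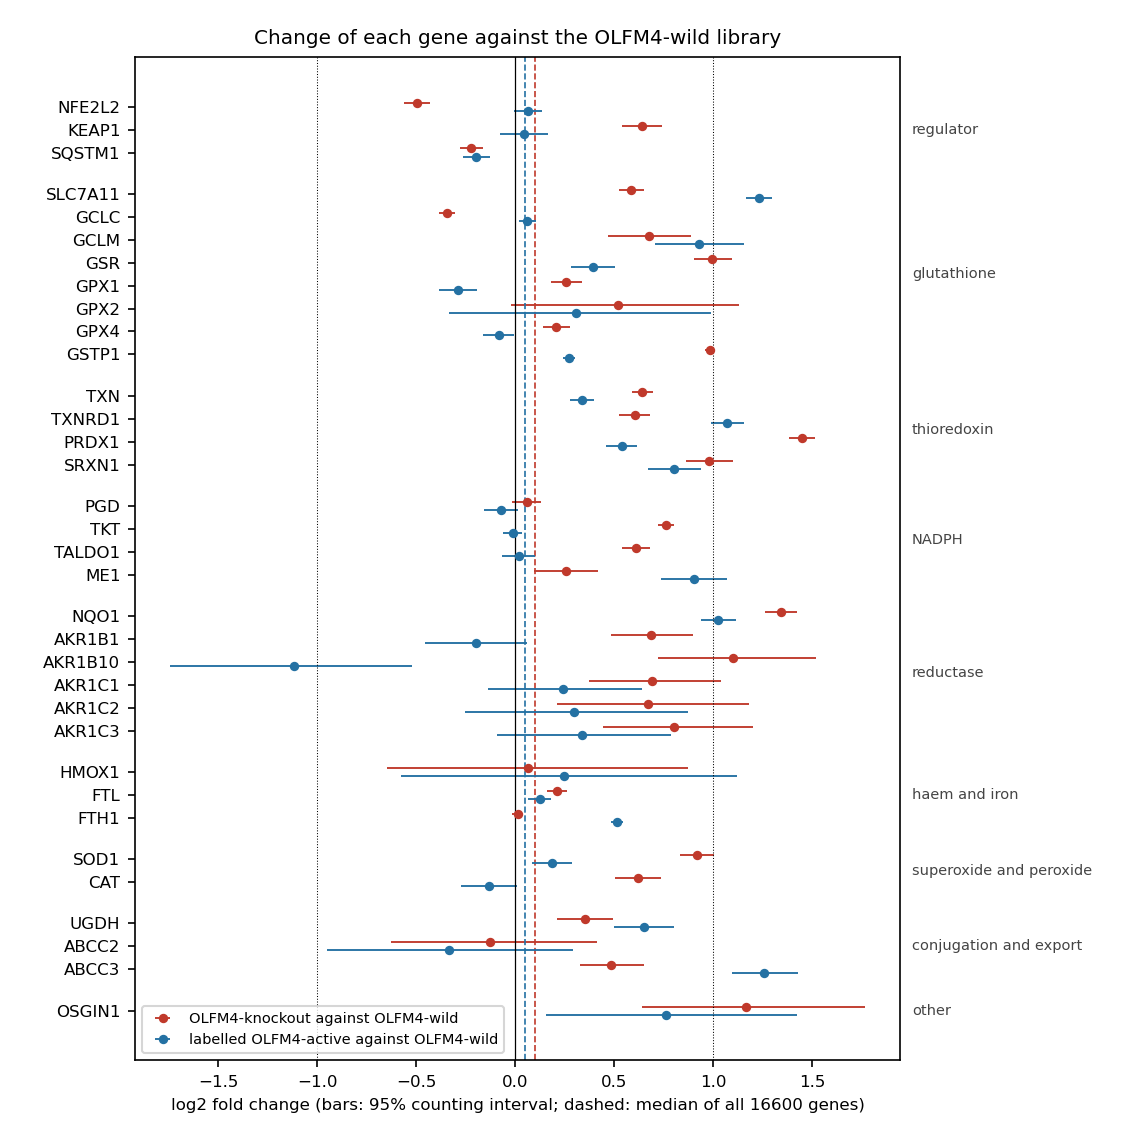
log2 fold change of each of the 34 genes against the wild library, grouped by role, for the knockout library (red) and the active-labelled library (blue), with bars for the 95% counting interval, dashed lines at the median of all genes and dotted lines at 1 and -1. AKR1B10 lies at 1.10 in red and -1.12 in blue, and the NFE2L2 value is below 0 in red, at -0.50, and close to 0 in blue, at 0.06.

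Among the regulators, NFE2L2 itself was lower in the knockout library and KEAP1 was higher, and neither passed a log2 fold change of 1. NFE2L2 (ENSG00000116044), on chromosome 2 from 177218667 to 177392756 on the minus strand in GRCh38, had 2883, 5776 and 3962 counts, or 159, 113 and 166 CPM. Its log2 fold change was -0.50 (-0.56 to -0.43) in the knockout library, which stayed below 0 with library totals, at -0.85, and 0.06 (-0.01 to 0.13) in the active-labelled library. KEAP1 (ENSG00000079999), on chromosome 19 from 10486125 to 10503558 on the minus strand, had 965, 4243 and 1308 counts, or 53.1, 82.7 and 54.7 CPM. The KEAP1 level was thus highest in the knockout library, with a log2 fold change of 0.64 (0.54 to 0.74), and in the active-labelled library it was 0.04 (-0.08 to 0.17), an interval that includes 0. Within a library the ratio of NFE2L2 to KEAP1 counts, which no scaling factor changes, was 2.99, 1.36 and 3.03, a log2 change of -1.13 (-1.25 to -1.01) in the knockout and 0.02 (-0.12 to 0.16) in the active-labelled library. SQSTM1 encodes p62, an autophagy receptor that can bind KEAP1, and had 3187, 7719 and 3655 counts, or 175, 150.4 and 153 CPM, with log2 fold changes of -0.22 and -0.20. The annotation lists 5 other genes that overlap NFE2L2 on its strand, 2 that overlap TXNRD1 and 1 each for KEAP1, GCLC, GPX1, SRXN1, SOD1 and OSGIN1, and read pairs in such stretches may not have been assigned to these genes.

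The promoters of several of the 34 genes hold the core of the antioxidant response element, and 5 are shown here because their genes stand at different steps of the pathway and moved unequally. RefSeq start sites on GRCh38.p14 gave 35 windows, from 250 bases before to 50 bases after the start, for 26 of the 34 genes. The core TGACNNNGC, searched on both strands, was found in 8 of the 35 windows (22.9%) and in 4687 of 35116 windows of all genes (13.3%). The version TGACTCAGC also holds TGACTCA, the letters of an AP-1 site. A match is a stretch of letters only, as binding was not measured. ABCC3, AKR1B10, FTH1, GSR, HMOX1, PRDX1, SLC7A11 and SOD1 had no window in the table used here. The 160 bases shown run from 150 before to 10 after the start, 5′ to 3′ along the gene's own strand, with each match in capitals.
GSTP1: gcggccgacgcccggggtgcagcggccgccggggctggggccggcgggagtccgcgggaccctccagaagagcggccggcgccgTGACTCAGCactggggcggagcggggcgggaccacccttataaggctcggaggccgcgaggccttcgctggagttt
GCLM: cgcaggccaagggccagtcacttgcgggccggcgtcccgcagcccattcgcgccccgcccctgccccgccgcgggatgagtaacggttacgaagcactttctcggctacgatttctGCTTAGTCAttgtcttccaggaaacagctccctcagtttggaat
TXNRD1: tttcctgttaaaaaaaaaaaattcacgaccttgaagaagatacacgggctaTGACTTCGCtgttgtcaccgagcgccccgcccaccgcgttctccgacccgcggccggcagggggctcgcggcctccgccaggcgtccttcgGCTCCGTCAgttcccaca
ME1: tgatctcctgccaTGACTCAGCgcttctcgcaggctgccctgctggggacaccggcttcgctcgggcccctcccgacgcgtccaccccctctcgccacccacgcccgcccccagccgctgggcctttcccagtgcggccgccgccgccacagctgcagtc
KEAP1: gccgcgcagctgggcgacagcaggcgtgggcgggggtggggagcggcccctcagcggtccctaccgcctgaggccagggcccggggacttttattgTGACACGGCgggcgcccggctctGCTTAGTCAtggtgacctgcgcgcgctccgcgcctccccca
These lie at chr11:67583662-67583821 on the plus strand, chr1:93909421-93909580 on the minus strand, chr12:104215629-104215788 on the plus strand, chr6:83431042-83431201 on the minus strand and chr19:10502762-10502921 on the minus strand. In GSTP1 the match starts at base -66 from the start site and reads TGACTCAGC on the gene's strand, and ME1 has the same letters at -137. The searched ME1 window also held TGACGGTGC on the opposite strand at 12, past the stretch shown. GCLM carries TGACTAAGC on the opposite strand at -34, and TXNRD1 carries TGACTTCGC at -99 and a further match at -8. KEAP1 holds matches at -54 and -31. The other windows with a match belonged to GPX2, PGD and a further start site of TXNRD1.

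The 8 glutathione genes were mostly higher in the knockout library, 7 of them with a log2 fold change above 0 (5 with library totals) and a median of 0.55, but none rose past 1. SLC7A11 (ENSG00000151012), on chromosome 4 from 138164097 to 138242349 on the minus strand, encodes the cystine importer that brings in the sulphur for glutathione. It had 2455, 10413 and 7573 counts, or 135, 203 and 317 CPM, with the highest level in the active-labelled library. Its log2 fold change was 0.59 (0.52 to 0.65) in the knockout library and 1.23 (1.16 to 1.30) in the active-labelled library. The glutamate-cysteine ligase makes the first step of glutathione synthesis, and its catalytic and modifier subunits, GCLC and GCLM, did not move together. GCLC, the catalytic subunit, had 7601, 16914 and 10413 counts, or 418, 329 and 436 CPM, and log2 fold changes of -0.34 (-0.38 to -0.31) and 0.06 (0.02 to 0.10), of which the second turned to -0.06 with library totals. GCLM, whose promoter is shown above, had 229, 1034 and 573 counts, or 12.6, 20.1 and 24.0 CPM, and log2 fold changes of 0.67 (0.47 to 0.89) and 0.93 (0.70 to 1.16). The ratio of GCLC to GCLM counts was 33.2, 16.4 and 18.2, a log2 change of -1.02 (-1.23 to -0.81) in the knockout and -0.87 (-1.09 to -0.64) in the active-labelled library, so the ratio was lower in both than in the wild library.

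Of the enzymes that use or recycle glutathione, GSR and GSTP1 differed most from the wild library, both in the knockout library. GSR, the reductase that returns oxidized glutathione to its reduced form, had 1040, 5858 and 1793 counts, or 57.2, 114 and 75.04 CPM, and its log2 fold change of 0.99 (0.90 to 1.09) in the knockout library lay just under 1, with 0.39 in the active-labelled library. GSTP1 (ENSG00000084207), on chromosome 11 from 67583742 to 67586656 on the plus strand, had 14457, 80720 and 22957 counts, or 796, 1572 and 961 CPM. The large counts of GSTP1 gave narrow intervals, with log2 fold changes of 0.98 (0.96 to 1.01) and 0.27 (0.24 to 0.30). Of the glutathione peroxidases, GPX1, the cytosolic enzyme, had 1713, 5786 and 1842 counts, or 94.3, 113 and 77.1 CPM, and GPX4, which reduces lipid hydroperoxides and restrains ferroptosis, had 2384, 7774 and 2956 counts, or 131, 151 and 124 CPM. Their log2 fold changes in the knockout library, 0.26 and 0.21, turned to -0.10 and -0.15 with library totals, while in the active-labelled library they were -0.29 (-0.39 to -0.19) and -0.08 (-0.16 to -0.01). Of the stretches of 75 bases in GPX1, 16.6% also occur in its pseudogene GPX1P1. The epithelial peroxidase GPX2 had 33, 135 and 54 counts, and its interval in the knockout library, 0.52 (-0.02 to 1.13), included 0, so a difference was not detectable at this depth.

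All 4 thioredoxin genes were higher in both other libraries than in the wild library, also with library totals, and the members that passed 1 were not the same in the 2 libraries. PRDX1 (ENSG00000117450), on chromosome 1 from 45510914 to 45542732 on the minus strand, encodes an abundant peroxiredoxin that reduces hydrogen peroxide. It had 2120, 16340 and 4043 counts, or 117, 318 and 169 CPM. Its log2 fold change of 1.45 (1.38 to 1.51) in the knockout library was the largest point value of the 34 genes there with TMM and with library totals. When centred on genes of like length and level PRDX1 was 0.87, below OSGIN1 at 1.42, AKR1B10 at 1.21, AKR1C2 at 0.98, NQO1 at 0.97 and AKR1C1 at 0.90. That order is of point values only, as OSGIN1, AKR1B10, AKR1C2 and AKR1C1 had small counts and wide intervals. In the active-labelled library PRDX1 had 0.54 (0.46 to 0.61). TXNRD1 (ENSG00000198431), on chromosome 12 from 104215779 to 104350307 on the plus strand, encodes the selenoenzyme that reduces thioredoxin with NADPH. It had 1636, 7018 and 4520 counts, or 90.0, 137 and 189 CPM, and rose by 1.07 (0.99 to 1.15) in the active-labelled library, where the value with library totals was 0.96, and had 0.60 (0.52 to 0.68) in the knockout library. Its substrate TXN had 3673, 16190 and 6096 counts, or 202, 315 and 255 CPM, with log2 fold changes of 0.64 and 0.34. SRXN1, sulfiredoxin, repairs overoxidized peroxiredoxins and had 675, 3757 and 1548 counts, or 37.1, 73.2 and 64.8 CPM, with log2 fold changes of 0.98 (0.86 to 1.10) and 0.80 (0.67 to 0.94). The ratio of TXNRD1 to TXN counts was 0.445, 0.433 and 0.741, so it changed by -0.04 (-0.13 to 0.05) in the knockout library and by 0.74 (0.63 to 0.84) in the active-labelled library on the log2 scale. The ratio of PRDX1 to SRXN1 went the other way, at 3.14, 4.35 and 2.61, with log2 changes of 0.47 (0.33 to 0.60) and -0.27 (-0.42 to -0.12).

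The 4 genes grouped under NADPH, of which PGD and ME1 encode enzymes that make it, did not move alike. TKT, the transketolase of the non-oxidative pentose phosphate branch, had 6139, 29348 and 8003 counts, or 338, 572 and 335 CPM, which gave log2 fold changes of 0.76 (0.72 to 0.80) and -0.01 (-0.06 to 0.04). TALDO1, the transaldolase of the same branch, had 2058, 8865 and 2739 counts, or 113, 173 and 115 CPM, with 0.61 (0.54 to 0.68) and 0.02 (-0.07 to 0.10). Both levels were therefore highest in the knockout library, and in the active-labelled library their intervals included 0 with TMM. With library totals the values there were -0.13 for TKT and -0.10 for TALDO1. PGD, which makes NADPH in the oxidative branch, had 2034, 5981 and 2544 counts, or 112, 117 and 106 CPM. Its log2 fold changes of 0.06 (-0.02 to 0.13) and -0.07 (-0.16 to 0.01) had intervals that included 0. With library totals they were -0.30 and -0.19. ME1, the cytosolic malic enzyme, had its highest level in the active-labelled library, with 414, 1396 and 1017 counts, or 22.8, 27.2 and 42.6 CPM. Its log2 fold change there was 0.90 (0.74 to 1.07), and in the knockout library it was 0.25 with TMM and -0.10 with library totals.

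The 6 quinone and carbonyl reductases were all higher in the knockout than in the wild library, with a median log2 fold change of 0.75, and all 6 stayed above 0 with library totals. NQO1 (ENSG00000181019), on chromosome 16 from 69706996 to 69726668 on the minus strand, reduces quinones to hydroquinones and is the gene most often used as a readout of NRF2. It had 1450, 10385 and 3882 counts, or 79.8, 202 and 162 CPM, and rose by 1.34 (1.26 to 1.42) in the knockout and by 1.03 (0.94 to 1.11) in the active-labelled library. With library totals the same values were 0.99 and 0.91, just under 1. AKR1B10 (ENSG00000198074), on chromosome 7 from 134527567 to 134541412 on the plus strand, reduces retinal and other aldehydes. It had 63, 384 and 38 counts, or 3.47, 7.48 and 1.59 CPM, and was the 1 gene of the 34 that passed 1 in opposite directions, at 1.10 (0.72 to 1.52) and -1.12 (-1.74 to -0.52). These counts are small, 7.31% of the stretches of 75 bases in its transcript also occur in transcripts of other genes, mostly of AKR1B15, and with library totals the first was 0.75 and the second -1.23. Its relative AKR1B1, the aldose reductase of the polyol pathway, had 233, 1060 and 267 counts, or 12.8, 20.6 and 11.2 CPM, with log2 fold changes of 0.68 (0.48 to 0.90) and -0.20 (-0.46 to 0.06). The ratio of AKR1B10 to AKR1B1 counts was 0.270, 0.362 and 0.142, and its log2 change was 0.42 (-0.01 to 0.86) and -0.93 (-1.56 to -0.29).

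The 3 neighbouring AKR1C genes encode hydroxysteroid dehydrogenases that also reduce lipid aldehydes. AKR1C1 had 93, 426 and 145 counts, AKR1C2 had 45, 204 and 73 and AKR1C3, which makes testosterone from androstenedione, had 72, 357 and 120. Their log2 fold changes in the knockout library were alike, at 0.69 (0.37 to 1.04), 0.67 (0.21 to 1.18) and 0.80 (0.44 to 1.20), while in the active-labelled library the intervals of all 3 included 0. The 3 cannot be fully separated, since 36.0% of the stretches of 75 bases in the canonical AKR1C2 transcript also occur in transcripts of other genes, as do 16.8% of those of AKR1C1 and 12.3% of those of AKR1C3, and pairs of reads that match such stretches only are not uniquely mapped.

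The haem and iron genes were nearly level in the knockout library, with a median log2 fold change of 0.06, and all 3 were below 0 with library totals. HMOX1, which degrades haem, had 21, 63 and 33 counts, or 1.16, 1.23 and 1.38 CPM, and its log2 fold change of 0.06 (-0.65 to 0.87) could not be told from 0 at this depth. FTL had 4280, 14003 and 6127 counts, or 236, 273 and 256 CPM, with log2 fold changes of 0.21 (0.16 to 0.26) and 0.12 (0.07 to 0.18), and -0.14 and 0.01 with library totals. FTH1 had 14230, 40508 and 26726 counts, or 783, 789 and 1119 CPM, and so was highest in the active-labelled library, by 0.51 (0.48 to 0.54), and was 0.01 (-0.02 to 0.04) in the knockout library. The ratio of FTH1 to FTL counts was 3.32, 2.89 and 4.36. Of the stretches of 75 bases, 31.5% in FTH1 occur in transcripts of 13 other genes and 9.54% in FTL in those of 2 others, so that part of their signal may be lost or shared.

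SOD1 and CAT, which convert superoxide to peroxide and peroxide to water, were both higher in the knockout library. SOD1 had 1279, 6826 and 1912 counts, or 70.4, 133 and 80.0 CPM, with log2 fold changes of 0.92 (0.83 to 1.01) and 0.18 (0.08 to 0.29). CAT, the peroxisomal catalase, had 762, 3303 and 913 counts, or 41.9, 64.3 and 38.2 CPM, with 0.62 (0.50 to 0.73) and -0.13 (-0.27 to 0.01). Thus with TMM, in the active-labelled library, SOD1 was a little above and CAT at the wild level within counting error. With library totals SOD1 was 0.07 and CAT -0.25 there. Both stayed above 0 in the knockout library with library totals, at 0.56 and 0.26.

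Of the genes for conjugation and export, ABCC3 (ENSG00000108846), on chromosome 17 from 50634777 to 50692253 on the plus strand, pumps glucuronide and glutathione conjugates out of the cell. It had 391, 1547 and 1229 counts, or 21.5, 30.1 and 51.4 CPM, and rose by 1.26 (1.09 to 1.43) in the active-labelled library, next to SLC7A11, whose value lay within this interval. With library totals ABCC3 was 1.14 there. The knockout value of ABCC3 was 0.48 (0.32 to 0.65). ABCC2, a pump of like substrates, had 45, 117 and 47 counts, and both its intervals included 0, at -0.13 (-0.63 to 0.41) and -0.33 (-0.95 to 0.29). UGDH, which makes the UDP-glucuronate used for glucuronidation, had 520, 1874 and 1072 counts, or 28.6, 36.5 and 44.9 CPM, with log2 fold changes of 0.35 (0.21 to 0.49) and 0.65 (0.50 to 0.80). UGDH was thus also highest in the active-labelled library, and its value in the knockout library was 0.00 with library totals. OSGIN1 (ENSG00000140961), on chromosome 16 from 83931311 to 83966332 on the plus strand, encodes an oxidative stress induced growth inhibitor. It had 32, 205 and 72 counts, or 1.76, 3.99 and 3.01 CPM, and its log2 fold changes of 1.16 (0.64 to 1.77) and 0.76 (0.16 to 1.42) have wide intervals because few reads were counted.

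In the direct comparison of the knockout with the active-labelled library, the share of the 34 genes past 1 was no higher than that of all genes. AKR1B10 alone passed 1, at 2.22 (1.75 to 2.75). That is 2.94% of the 34 genes, against 2.95% of all genes above 1, 3.39% below -1 and 6.34% in either direction. With library totals ABCC3 also passed, at -1.01, and 1.28% of all genes lay above 1 and 6.84% below -1. The whole interval lay above 0 for 20 of the 34 genes (58.8%, against 39.8% of all genes). It lay below 0 for 9 (26.5%, near the 28% of all genes). The 9 genes that were higher in the active-labelled library were NFE2L2, SLC7A11, GCLC, GCLM, TXNRD1, ME1, FTH1, UGDH and ABCC3, with ABCC3 at -0.77, ME1 at -0.65, SLC7A11 at -0.64 and TXNRD1 at -0.47. Those most in favour of the knockout library after AKR1B10 were PRDX1 at 0.91, AKR1B1 at 0.88, TKT at 0.77, CAT at 0.75, SOD1 at 0.73 and GSTP1 at 0.71. Here too the change of all genes moved with transcript length, and centred on genes of like length and level PRDX1 was 0.46, SOD1 0.28, GSTP1 0.26 and SLC7A11 -0.37. The median over the 34 genes was 0.30 with TMM, against 0.08 over all genes, and 0.06 with library totals. The histograms of all genes with the 34 genes marked show how they lie in each comparison.

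**Figure D3:**
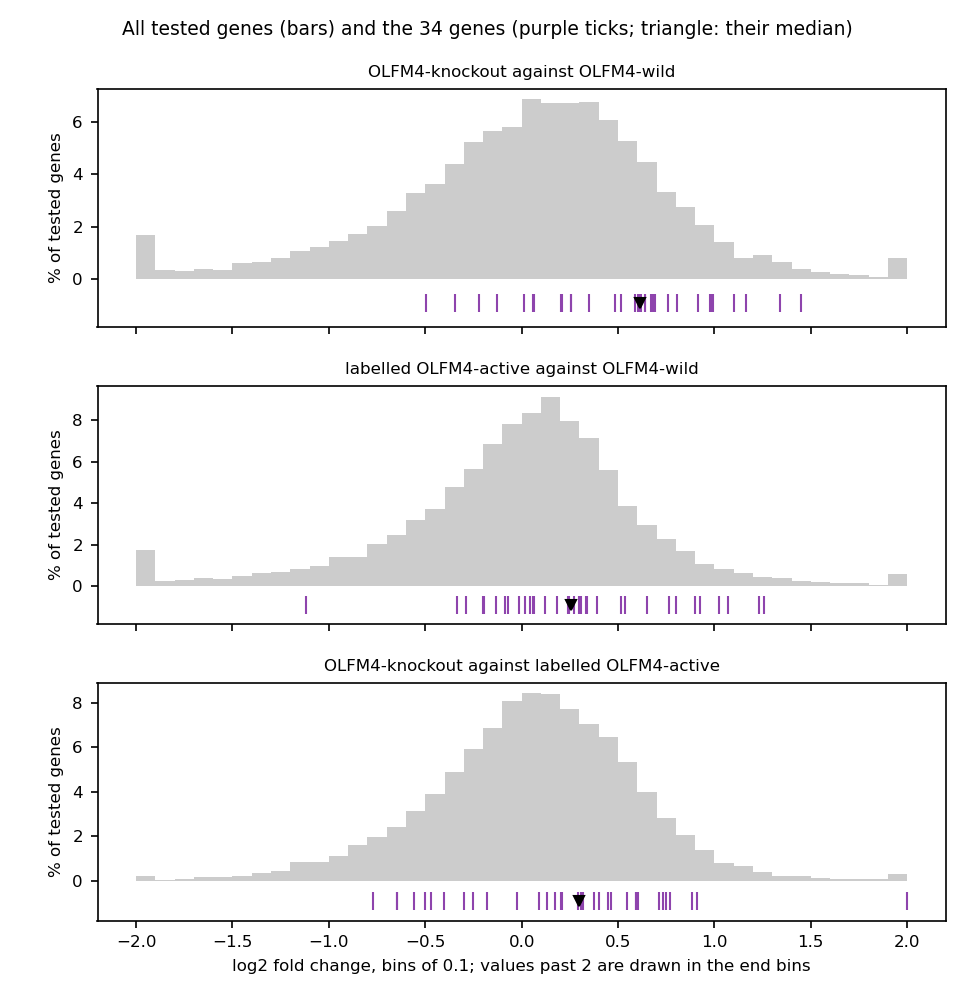
Share of all 16600 genes in bins of log2 fold change (grey bars, in percent), with a purple tick for each of the 34 genes and a triangle at their median, for each of the 3 comparisons. The triangle lies at 0.61, 0.26 and 0.30 from top to bottom, and the medians of all genes are 0.10, 0.05 and 0.08.

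Ratios between partner genes within a library do not depend on how libraries are scaled. Partners can differ in transcript length, as do TXNRD1, at 3860 bases, and TXN, at 737 bases. Centred on genes of like length and level, TXNRD1 was 0.40 and TXN 0.06 in the knockout against the wild library. The part of length in the ratios was not tested. The pairs were put together by function with their values known. Besides those given above, the cystine importer SLC7A11 and its heavy chain partner SLC3A2 had a count ratio that was lower in the knockout and higher in the active-labelled library. The ratio was 0.302, 0.188 and 0.448, a log2 change of -0.69 (-0.76 to -0.62) in the knockout and 0.57 (0.49 to 0.64) in the active-labelled library. The ratio of GSR to GPX1 was 0.607, 1.01 and 0.973 and was higher in both libraries, by 0.74 (0.61 to 0.86) and 0.68 (0.54 to 0.83). The ratios of AKR1C1 to AKR1C2, at 2.07, 2.09 and 1.99, and of TALDO1 to TKT, at 0.335, 0.302 and 0.342, moved little, while that of ABCC3 to ABCC2, at 8.69, 13.2 and 26.1, was higher in both other libraries.

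**Figure D4:**
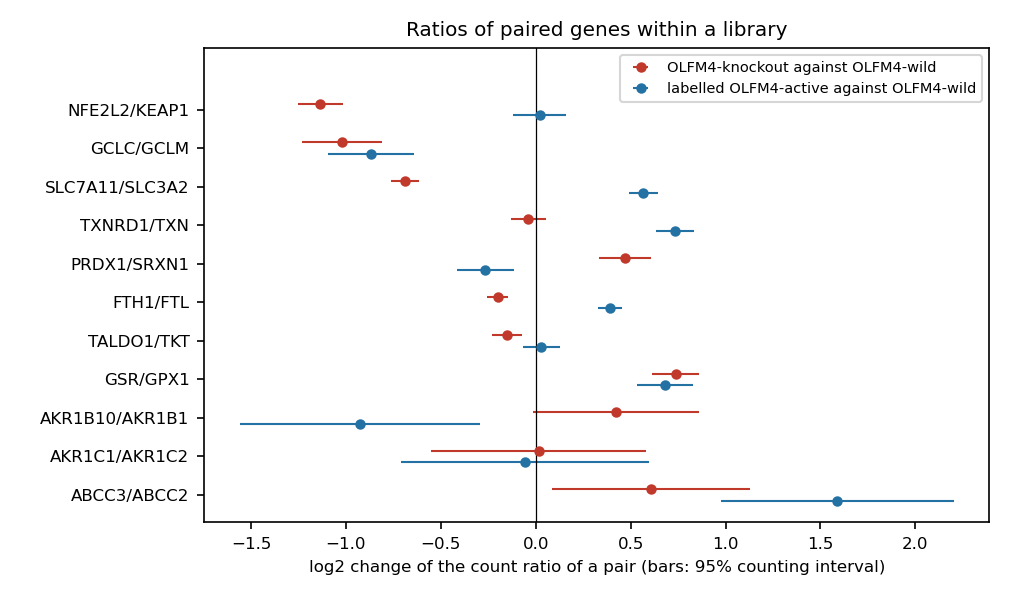
log2 change of the count ratio of 11 pairs of partner genes against the wild library, for the knockout library (red) and the active-labelled library (blue), with bars for the 95% counting interval. The NFE2L2 to KEAP1 ratio lies at -1.13 in red and 0.02 in blue, and the GCLC to GCLM ratio lies at -1.02 in red and -0.87 in blue.

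Transcript length moved with the change of all genes in the knockout against the wild library. The median log2 fold change of all genes went from 0.31 in the shortest to -0.22 in the longest of 10 bins of length, and from 0.11 to 0.04 in the active-labelled library. In the knockout against the active-labelled library it went from 0.21 in the shortest and 0.29 in the next bin to -0.25 in the longest. Many of the 34 genes are short, such as GSTP1, TXN, PRDX1 and SOD1, and the part of length in their values was not tested. Centred on genes of like length and level, the median of the 34 genes in the knockout library was 0.38. Of the 30 genes above 0 there, 25 were also above 0 on that scale, FTH1, FTL, GPX1, GPX4 and PGD were below it, and ABCC2 went from below to above 0. On that scale PRDX1 was 0.87, NQO1 0.97, GSTP1 0.40 and TXN 0.06, whereas OSGIN1 was 1.42, AKR1B10 1.21 and the long transcript of SLC7A11 0.70. NFE2L2, at -0.87, and GCLC, at -0.55, stayed below 0.

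**Figure D5:**
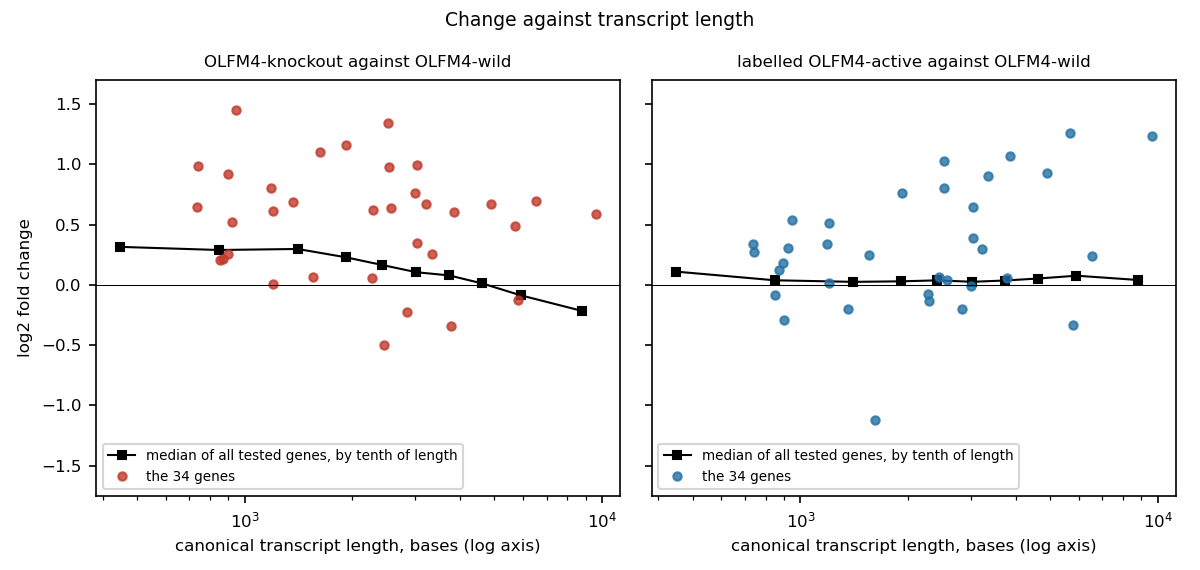
log2 fold change against the length of the canonical transcript in bases (log axis) for the 34 genes (dots), with the median of all genes in each of 10 bins of length (black squares), for the knockout (left) and the active-labelled library (right) against the wild library. The black line falls from 0.31 to -0.22 on the left and stays between 0.02 and 0.11 on the right.

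Among 108 other genes of the same pathways that reached 1 CPM on average, 8 rose (7.41%) and 7 fell (6.48%) in the knockout library, near the 5.77% and 7.56% of all genes, and 2 rose (1.85%) and 7 fell (6.48%) in the active-labelled library, against 3.78% and 6.73% of all genes. With library totals 1 rose (0.926%) and 9 fell (8.33%) in the knockout library, against 2.22% and 13.9% of all genes. In the active-labelled library 1 rose (0.926%) and 7 fell (6.48%) on that scale, against 2.89% and 8.36% of all genes. With TMM the median log2 fold change of the 108 genes was 0.22 and 0.06, against 0.10 and 0.05 over all genes. With library totals it was -0.13 and -0.05, against -0.26 and -0.07 over all genes. Centred on genes of like length and level it was 0.015 and -0.018. The partners of the 34 genes are taken first. SLC3A2, the heavy chain of the cystine importer, had 8122, 55518 and 16913 counts, or 447, 1082 and 708 CPM, with log2 fold changes of 1.27 and 0.66. CUL3, the ligase scaffold used by KEAP1, had 0.22 and 0.57, and with library totals -0.14 in the knockout library. BACH1, which competes with NRF2 at its sites, was lower in both, at -0.53 (-0.61 to -0.45) and -0.44 (-0.53 to -0.34), and the NRF2 relative NFE2L1 was at -0.26 and -0.24.

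Of the named genes of that wider list, an inhibitor of thioredoxin and an enzyme that breaks down glutathione had the largest changes, and both fell in both libraries. TXNIP, which binds and inhibits thioredoxin, had 17330, 7301 and 1396 counts, or 954, 142 and 58.4 CPM, with log2 fold changes of -2.75 and -4.03. CHAC1, a glutathione-degrading enzyme of the stress response, had 594, 151 and 46 counts, or 32.7, 2.94 and 1.93 CPM, with log2 fold changes of -3.47 (-3.74 to -3.21) and -4.07 (-4.55 to -3.65). The sestrins SESN2 and SESN3, stress proteins that restrain mTORC1, were at -1.61 and -1.04 in the knockout library and at -2.32 and -0.50 in the other. MAP1LC3B, an autophagosome protein, fell to -1.05 in the knockout library and was 0.63 in the active-labelled library. The genes that rose in the knockout library included the transferrin receptor TFRC at 1.43, the mitochondrial glutaredoxin GLRX2 at 1.27, TXNDC17, a thioredoxin-like protein, at 1.19, TRIM16 at 1.12, the carbonyl reductase CBR1 at 1.10 and the haem oxygenase HMOX2 at 1.05, of which TFRC also rose in the active-labelled library, at 1.03. With library totals TFRC, at 1.08, kept its rise and GLRX2, TXNDC17, TRIM16, CBR1, HMOX2 and SLC3A2 lay between 0.70 and 0.92.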

How the data were processed

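Total RNA of GFP-sorted RWPE1 cells was depleted of ribosomal RNA, and stranded paired-end libraries were sequenced. The authors trimmed reads with cutadapt, aligned them to GRCh38 with HISAT2 and counted uniquely mapped, reversely stranded pairs per gene with featureCounts, and the deposited table holds these raw counts, without normalization, for 58037 genes. The annotation release is not given in the sources used here. Positions, transcript lengths and symbols came from GENCODE version 44, in which 56948 identifiers (98.1%) matched, and promoter sequence from RefSeq.

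Library totals ranged from 16309906 to 58837147 counts. Counts were scaled with TMM factors of edgeR 4.0.16 in R 4.3.3 (1.11, 0.872 and 1.03), and log2 CPM were taken with an offset of 0.5 counts. Intervals, lists and plots were made in Python 3.11.15 (pandas 2.3.3, scipy 1.17.1, numpy 2.4.6, matplotlib 3.10.9). No test was run, as each condition has 1 library. Genes that averaged at least 1 CPM were kept, and a log2 fold change past 1 in either direction was called. Intervals are exact conditional Clopper-Pearson intervals at 95%, Wald intervals on the log odds for count ratios, and cover counting error only, since reads without molecular identifiers are not independent molecules. A floor of 3 counts was 0.165, 0.0584 and 0.126 CPM, in the same order. Tested on simulated data for the knockout against the wild library over 16600 genes, the procedure recovered past 1 all (100%) of 200 genes given a change of 2 on the log2 scale, 95.4% of intervals covered the true value, and 12 of 16400 unchanged genes lay past 1. How often an unchanged gene would pass 1 between real cultures cannot be read from this, as the spread between cultures is not known.

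The 34 genes, the wider list and the pairs were chosen with earlier results of these data known. Every one of the 34 genes was named. Of the wider list (119 of 120 genes matched in the table by identifier), those with a mean of at least 10 CPM and a log2 fold change past 1 against the wild library were named, besides NFE2L1, BACH1, CUL3 and SLC3A2, and 1 result under this rule is not reported here. Alternatives were library totals, DESeq2 1.42.0 size factors, upper quartile factors, offsets of 1 and 5 counts, other filters, thinning to the shallowest library, 2 kinds of centring, a call at 2 and a call on the whole interval.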

Additional observations from a re-analysis of the deposited data

How the results depend on the processing

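No paired analysis was possible because each condition has 1 library. The number of the 34 genes past 1 in the knockout against the wild library was 4, and it was 1 with library totals, 2 at a minimum mean of 10 CPM, 2 when centred on genes of like length and level, 2 when the whole interval had to pass and 0 at a call of 2. In the active-labelled against the wild library it was 5, and 3 with library totals, 3 with that centring, 2 on the whole interval and 0 at a call of 2. In the knockout against the active-labelled library it was 1, and 2 with library totals, where ABCC3 also fell below -1, and 0 at a minimum mean of 10 CPM. Apart from library totals, treated above, the share of all genes past 1 under these alternatives is not given. That share can drop under a stricter call or filter too, so these counts alone do not place the 34 genes against all genes. The median of the 34 genes went from 0.61 to 0.26 with library totals, 0.52 when centred on the median of all genes and 0.38 when centred on like genes in the first comparison, from 0.26 to 0.14 with library totals in the second, and from 0.30 to 0.061 with library totals, 0.19 with upper quartile factors, 0.22 when centred on all genes and 0.083 when centred on like genes in the third. Library totals and TMM differ by a constant per comparison, and a higher filter tests fewer genes, while the cause of the other shifts was not tested. The number of wider-list genes past 1 in either direction stayed within 1.5 times under each alternative run on it, but with library totals its 8 rises and 7 falls in the knockout against the wild library became 1 and 9. Of the 102 single log2 fold changes, 22 changed sign under an alternative, none of them past 1. Counting error limits HMOX1, ABCC2, GPX2, OSGIN1, AKR1B10 and AKR1C2 most, and without replicates no spread between cultures is known.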
